A study of Homo sapiens with 4 samples.

Results

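The genes described here encode the human kinetochore, the centromere beneath it and the spindle checkpoint, and they were read in 22Rv1 cells, a castration-resistant prostate cancer line. The 43 genes were chosen by symbol, as centromere (CENP), outer kinetochore and checkpoint genes. Of these, 42 had a probe set with their symbol among 17687 named genes, 1 each. The signal of CENPP was not analysed here. All 42 passed the filter on dim genes, which kept the 8843 genes whose highest value exceeded 6.51 on the log2 scale.

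Total RNA was hybridised to 4 whole-transcript arrays, 1 per group, after transfection with an siRNA against OCT1 (siOCT1) or a control siRNA (siControl). Hormone followed 48 h later, and cells received 10 nM dihydrotestosterone (DHT) or ethanol vehicle for 24 h, so the groups were siOCT1 with DHT, siOCT1 with vehicle, siControl with DHT and siControl with vehicle. All 4 groups were the same cell line, kept in phenol red-free medium with charcoal-treated serum before hormone. OCT1 is the transcription factor encoded by POU2F1, whose level was not analysed here, so siOCT1 stands for the transfection as labelled.

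No group had a repeat array, so no difference between a pair of arrays has a replicate check. Values are log2 signals on the deposited scale, and differences are siOCT1 minus siControl or DHT minus vehicle. The background of an array was set so that 95% of its 612 negative control probe sets lay under it, at 6.91 and 7.39 on the siOCT1 arrays with DHT and vehicle, and 6.99 and 6.62 on the siControl arrays with DHT and vehicle. Of the 42 genes, 24 lay above background on every array, 12 lay below it on the siOCT1 array with DHT and 18 on that with vehicle, against 2 and 4 on the siControl arrays with DHT and vehicle. If the lower value of a pair did not reach its own array's background, the fold is a bound, written "at least", taken from the higher value to that background. Medians, ranges and counts over genes, and the plots, use the deposited values, also where these lie below background. The luminal markers KRT8, KRT18, EPCAM, CDH1 and HOXB13 lay above background on every array, between 9.96 and 15.72. Of 11 basal, stromal, immune and endothelial markers, 10 lay below background on every array and COL1A2 exceeded it on 1. Of the luminal markers KRT8 fell with siOCT1 (-1.44 in DHT and -0.51 in vehicle, limma adjusted p = 0.0342), and its part in the results was not tested. In RNA from whole cultures, fewer dividing cells and less RNA per cell cannot be told apart.

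The kinetochore is built on nucleosomes that carry CENP-A, a histone H3 variant that HJURP and the MIS18 proteins load onto centromeres. An inner layer, the constitutive centromere network of CENP proteins, joins this chromatin to the outer NDC80, MIS12 and KNL1 complexes, which hold microtubules. Kinetochores without microtubules recruit TTK, BUB1, BUB3, BUBR1 (BUB1B), MAD1 and MAD2, which keep CDC20 from activating the anaphase-promoting complex. Many of these genes are transcribed mainly in late cell cycle phases, and the promoters of such genes often hold a cell cycle genes homology region (CHR) and CCAAT boxes.

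These motifs were looked for in RefSeq promoter windows (GRCh38.p14) that run from 250 bases before to 50 after an annotated start. There were 41 windows for 35 of the 43 genes. CENPP, whose signal was not analysed, is 1 of the 35 and its windows are counted. The motifs were TTTGAA for the CHR, CCAAT, the octamer ATGCAAAT bound by OCT factors, and TTTGGCGC, TTTCCCGC, TTTGCCGC or TTTCGCGC as E2F-like sites, each on both strands, and no motif contains another. A CHR lay in 18 of the 41 windows (43.9%), against 15.2% of all 35116 windows in the table, and a CCAAT box in 27 (65.9%), against 34.6%. Both lay together in 12 windows (29.3%), against 5.90% of all windows. E2F-like sites lay in 5 windows (12.2%), against 3.31%. The octamer was in none of the 41 windows, and in 1.77% of all windows. Windows of the same gene can overlap and share a match, as in ZWINT. Counted by gene, 17 of 35 (48.6%) held a CHR, against 18.2% of all genes with a window. A CCAAT box was held by 24 of 35 (68.6%), against 39.7%. Counting only bases before the start, 24.4% of the genes' windows held a CHR, against 13.3% of all windows, and several matches lay across or after the start, as in NDC80, NUF2 and SKA1. A match is a description of letters in the window and not a site.

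The bases before the start are shown for CDC20, HJURP and CENPA, which the fit described below called lower with siOCT1. CENPA lay below background on every array. They are also shown for CENPC, which also holds both motifs and was not called. Capitals mark CHR, CCAAT and E2F-like matches on either strand, and each sequence ends at the base before the start. The stretches are chr1:43358731-43358980 (plus strand), chr2:233854536-233854785 (minus strand), chr2:26785806-26786055 (plus strand) and chr4:67545504-67545753 (minus strand), read 5′ to 3′.
CDC20: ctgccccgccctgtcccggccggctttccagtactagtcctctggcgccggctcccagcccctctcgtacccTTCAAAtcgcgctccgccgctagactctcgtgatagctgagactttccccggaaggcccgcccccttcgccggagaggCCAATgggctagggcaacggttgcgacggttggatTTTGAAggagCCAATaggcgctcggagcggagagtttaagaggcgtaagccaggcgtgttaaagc
HJURP: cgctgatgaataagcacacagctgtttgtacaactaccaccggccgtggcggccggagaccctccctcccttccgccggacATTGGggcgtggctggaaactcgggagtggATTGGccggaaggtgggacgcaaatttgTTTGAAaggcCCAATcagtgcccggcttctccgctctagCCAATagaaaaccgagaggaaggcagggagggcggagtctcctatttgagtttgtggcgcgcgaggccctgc
CENPA: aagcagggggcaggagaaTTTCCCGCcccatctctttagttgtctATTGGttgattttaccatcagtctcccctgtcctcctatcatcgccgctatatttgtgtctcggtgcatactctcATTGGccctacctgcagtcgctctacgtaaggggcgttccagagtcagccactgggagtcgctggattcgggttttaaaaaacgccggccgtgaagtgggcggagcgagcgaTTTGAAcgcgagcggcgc
CENPC: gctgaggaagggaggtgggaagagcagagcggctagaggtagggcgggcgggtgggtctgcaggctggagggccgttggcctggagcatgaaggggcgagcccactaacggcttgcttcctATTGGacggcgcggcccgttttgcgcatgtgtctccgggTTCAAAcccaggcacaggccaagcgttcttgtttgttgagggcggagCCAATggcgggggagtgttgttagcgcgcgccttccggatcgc

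With -1 as the base before the start, CDC20 held CHR matches from -178 and -65 and CCAAT boxes from -100 and -55. HJURP held a CHR from -111 and 4 CCAAT boxes, and CENPA a CHR from -18, 2 CCAAT boxes and an E2F-like site. CENPC held a CHR from -90 and 2 CCAAT boxes. Among the 17 measured genes with a CHR in a window, the median siOCT1 difference over both ligand states was -2.04 and 14 were called lower by the fit described below. Among the 17 with windows but no CHR the median was -1.36 and 12 were called. The ranges overlapped, from -3.50 to 0.47 with a CHR and from -2.76 to -0.01 without one. For the CCAAT box the medians lay the other way, at -1.54 in 23 genes with it and -1.91 in 11 without. For E2F-like sites they also did, at -1.57 in 4 genes with a site and -1.75 in 30 without. No test was made of these differences.

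**Figure D1:**
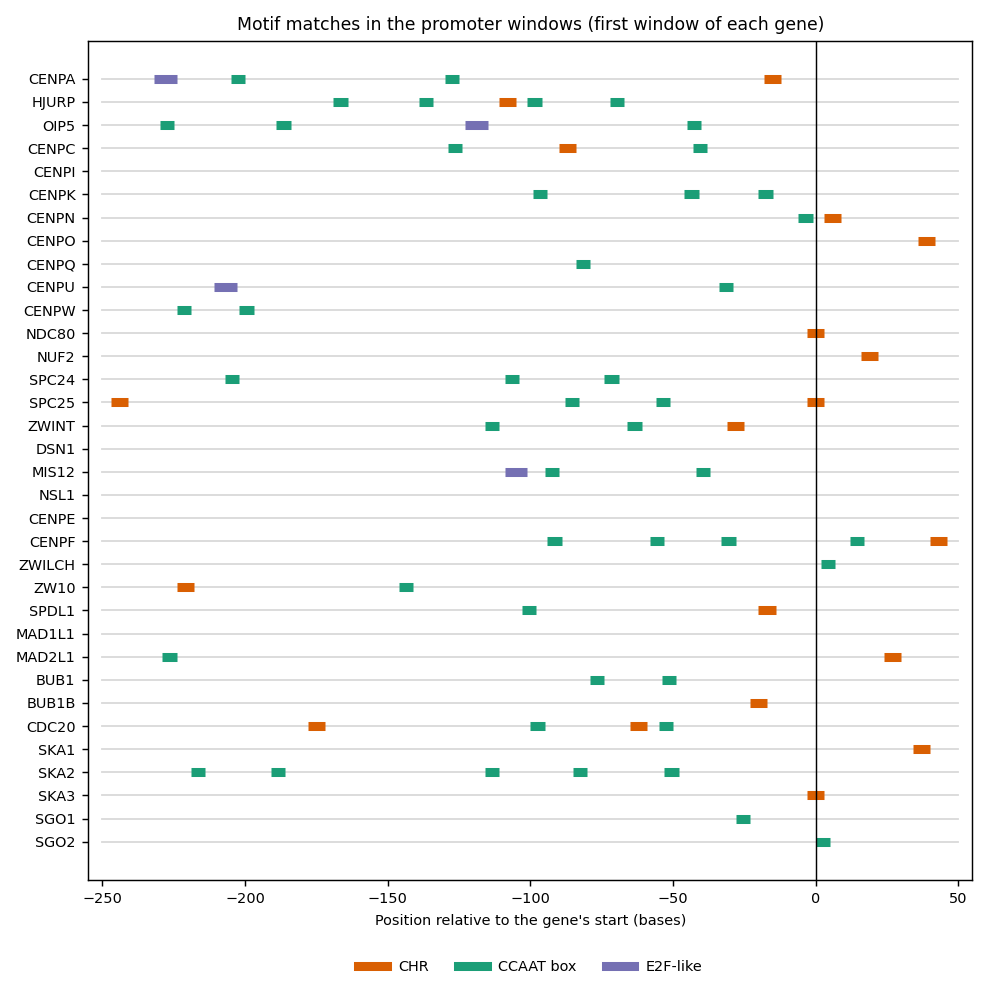
Position of CHR (orange), CCAAT box (green) and E2F-like (purple) matches in the first promoter window of each of the measured genes that have one, in bases relative to the annotated start (0). CHR matches of NDC80 and SKA3 span the start, as does that of SPC25 from -3, while its other match lies from -247. Those of CENPF, CENPN, CENPO, MAD2L1, NUF2 and SKA1 lie after the start. The rows of CENPE, CENPI, DSN1, MAD1L1 and NSL1 hold no match.

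Most kinetochore genes had lower signal in siOCT1 cells. Of the 42 measured genes, 41 were lower in DHT and 41 in vehicle, with medians of -1.84 in DHT and -1.45 in vehicle, against -0.07 and -0.06 over all measured genes. A difference of at least 1.5-fold downward in both ligand states was found in 36 of the 42 genes (85.7%), against 18.7% of all measured genes and 8.01% of the negative control probe sets. This count uses deposited values and includes CENPA and CENPQ, which lay below background on every array. The filter kept genes by their highest value, which for some members was reached only in siControl cells. With values raised to the highest array background, 37 of the genes remained and 29 passed. The share of all genes that passed with raised values is not given here. On 38 genes (90.5%, against 34.5% of all measured genes) both siOCT1 values lay below both siControl values, and the 4 exceptions were CENPC, NSL1, ZW10 and BUB3. The differences in DHT and in vehicle come from separate arrays, and across the 42 genes they had a Pearson r of 0.69 and a Spearman rho of 0.60, against 0.76 and 0.73 over all measured genes, as a description.

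An additive model of siRNA and ligand, fitted with limma over all measured genes, called 33 of the 42 genes lower (78.6%, against 15.3% of all measured genes) and none higher after Benjamini-Hochberg adjustment at 0.05. Their mean differences ran from -3.50 to -0.93 with standard errors of 0.22 to 0.47, and the adjusted p from 0.00113 for CDC20 to 0.0435 for SGO2. The fit has 1 residual degree of freedom, which is the difference between the siRNA effects in DHT and vehicle and not a spread between repeat cultures. Without the ligand term 24 genes were called lower, and CENPA, CENPI, CENPK, KNL1, MIS12, CENPF, SPDL1, TTK and SGO2 lost their call. Of the 24 genes above background on every array 19 were called lower, with medians of -1.69 in DHT and -1.44 in vehicle. With the fit restricted to genes above background on every array, 19 were also called lower, against 948 of 6458 genes tested. With values raised to the highest array background, 27 of 37 genes were called lower, against 920 of 7734 genes tested. In the text "fell" is used only of genes this fit called.

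**Figure D2:**
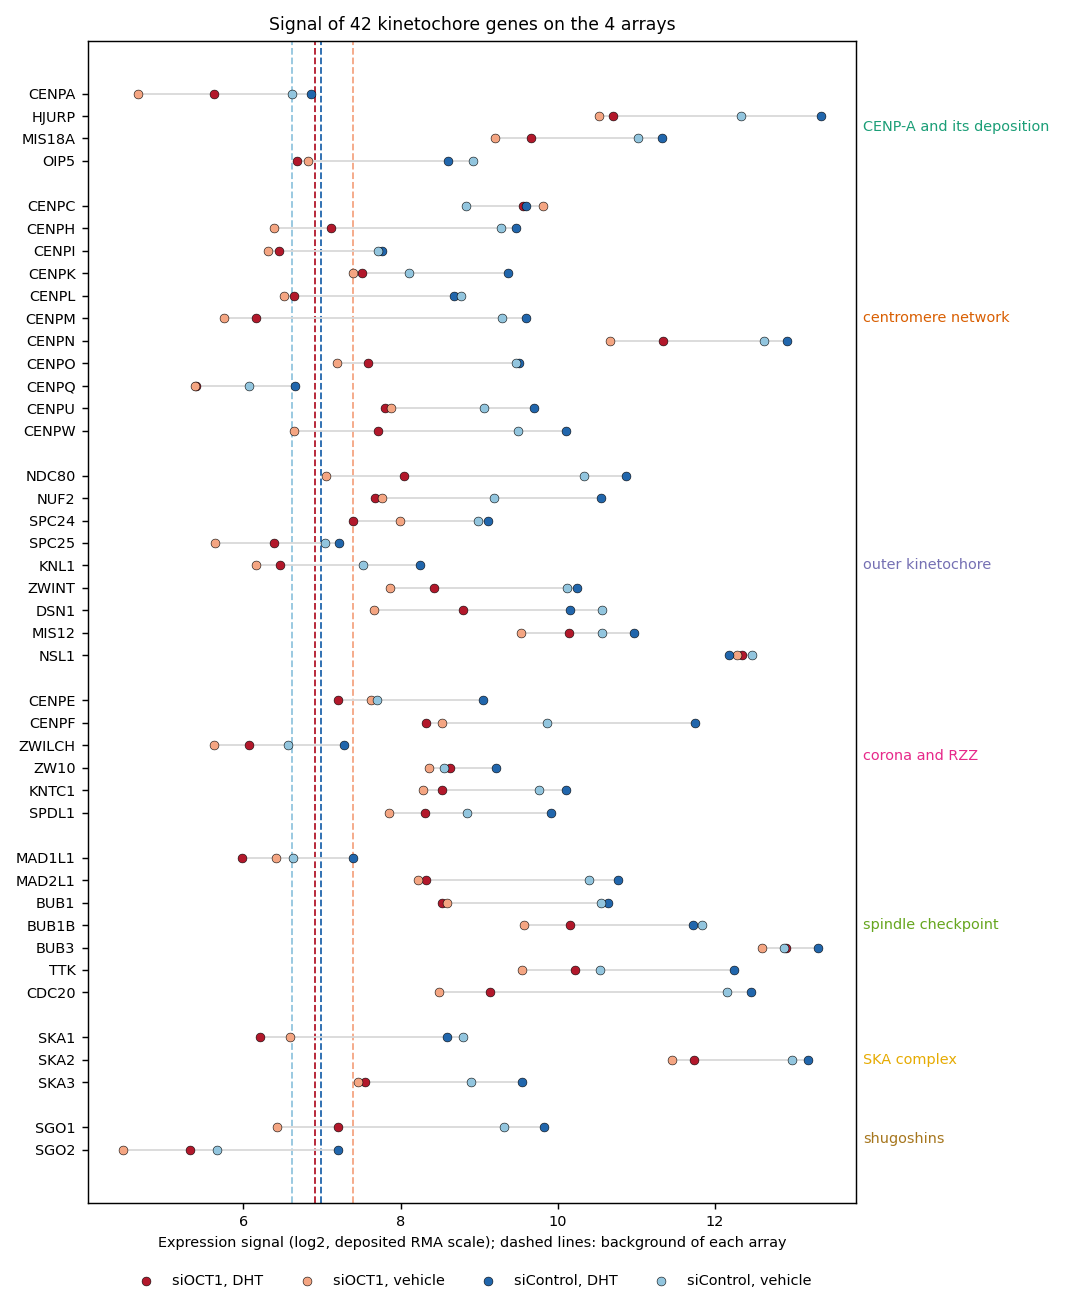
Log2 signal of the 42 measured genes on the 4 arrays, grouped by role, siOCT1 in reds and siControl in blues, with the background of each array as a dashed line. The siOCT1 points of CDC20, NDC80, CENPM and SGO1 lie well left of the siControl points, those of NSL1 and BUB3 lie close to them, and CENPA and CENPQ lie below background throughout.

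All 4 genes of CENP-A loading fell, with a median of -1.79 in DHT and -1.89 in vehicle. HJURP, the CENP-A chaperone, had 10.71 with DHT and 10.53 with vehicle in siOCT1 cells, against 13.35 and 12.33 in siControl cells. It fell by 2.64 in DHT and by 1.81 in vehicle, and the siOCT1 values lay far below both siControl values. MIS18A, a subunit of the complex that marks centromeres for loading, had 9.67 and 9.20 with DHT and vehicle in siOCT1 cells, against 11.33 and 11.02 in siControl cells. OIP5 (MIS18B), its partner, had 6.68 and 6.83 in siOCT1 cells with DHT and vehicle, both below background, against 8.61 and 8.92 in siControl cells. It was at least 3.25-fold lower in DHT and at least 2.89-fold in vehicle. CENPA itself lay below background on every array, at 5.62 and 4.65 in siOCT1 cells with DHT and vehicle and 6.86 and 6.61 in siControl cells, so its call (adjusted p = 0.0337, limma) carries no fold.

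In the constitutive centromere network 9 of 11 measured genes fell, with medians of -1.89 in DHT and -1.95 in vehicle. CENPM, which sits with CENPI, CENPH and CENPK in one subcomplex, had 6.16 with DHT and 5.75 with vehicle in siOCT1 cells, against 9.60 and 9.29 in siControl cells. Both siOCT1 values lay below background, so the gene was at least 6.45-fold lower in DHT and at least 3.72-fold in vehicle. CENPH had 7.11 and 6.38 in siOCT1 cells with DHT and vehicle, against 9.47 and 9.28 in siControl cells. It fell by 2.36 in DHT, and in vehicle it was lower by at least 3.70-fold. CENPK fell by 1.86 in DHT, with a vehicle value lower by at least 1.64-fold, and CENPI was at least 1.81-fold and 1.24-fold lower in DHT and vehicle.

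CENPW, a histone-fold protein of the network, had 7.71 and 6.65 with DHT and vehicle in siOCT1 cells, against 10.10 and 9.49 in siControl cells, with a fall of 2.39 in DHT and an at least 4.29-fold lower value in vehicle. CENPO had 7.59 and 7.19 in siOCT1 cells with DHT and vehicle, against 9.51 and 9.47 in siControl cells. It was lower by at least 4.22-fold in vehicle and fell by 1.92 in DHT. CENPL, which pairs with CENPN, had 6.64 and 6.51 in siOCT1 cells with DHT and vehicle, both below background, against 8.68 and 8.77 in siControl cells. CENPN, which binds the CENP-A nucleosome, fell by 1.59 in DHT and 1.95 in vehicle. CENPU fell by 1.89 and 1.19 in DHT and vehicle, and CENPQ, with which it associates, lay below background on every array.

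CENPC was not among the genes that fell. This scaffold protein, which binds both the CENP-A nucleosome and the outer MIS12 complex, had 9.56 with DHT and 9.82 with vehicle in siOCT1 cells, against 9.60 and 8.84 in siControl cells. The siOCT1 and siControl values overlapped, since the siControl array with vehicle was the only low one, and the differences were -0.04 in DHT and 0.98 in vehicle (limma adjusted p = 0.311). It was the only one of the 42 genes higher by at least 1.5-fold with siOCT1 in either ligand state.

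In the outer kinetochore 7 of 9 genes fell, with medians of -1.72 in DHT and -1.40 in vehicle. NDC80, the microtubule-binding subunit that names its complex, had 8.04 with DHT and 7.05 with vehicle in siOCT1 cells, against 10.88 and 10.33 in siControl cells. It fell by 2.84 in DHT and was lower by at least 7.67-fold in vehicle (limma adjusted p = 0.00162), where the siOCT1 value lay below background. NUF2, its coiled-coil partner, had 7.67 and 7.76 in siOCT1 cells with DHT and vehicle, against 10.55 and 9.19 in siControl cells. It fell by 2.88 in DHT and 1.44 in vehicle, with the siControl array in DHT the highest. SPC24 and SPC25 form the end of the complex that faces the centromere. SPC24 fell by 1.72 in DHT, and both siOCT1 values lay below both siControl values. SPC25 lay below background on both siOCT1 arrays, was at least 1.24-fold lower in DHT, has no fold in vehicle and was not called (limma adjusted p = 0.0623).

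KNL1, the scaffold on which BUB1 and BUB3 dock, had 6.47 and 6.16 with DHT and vehicle in siOCT1 cells, both below background, against 8.25 and 7.53 in siControl cells. It was at least 2.54-fold lower in DHT and at least 1.10-fold in vehicle. ZWINT, which binds KNL1, had 8.43 and 7.86 in siOCT1 cells with DHT and vehicle, against 10.25 and 10.12 in siControl cells, and it fell by 1.83 in DHT and fell by 2.25 in vehicle.

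The MIS12 complex was uneven. DSN1 had 8.80 with DHT and 7.66 with vehicle in siOCT1 cells, against 10.16 and 10.57 in siControl cells. It fell by 1.36 in DHT and by 2.91 in vehicle, and the siOCT1 array with vehicle was the lowest. MIS12 fell by 0.83 and 1.03 in DHT and vehicle. NSL1 had 12.35 and 12.28 with DHT and vehicle in siOCT1 cells, against 12.19 and 12.48 in siControl cells. Its 4 values lay within 0.29 of each other and the groups overlapped, with differences of 0.16 in DHT and -0.19 in vehicle (limma adjusted p = 0.969) and a mean that changes sign with the centring of the arrays, whereas DSN1 and MIS12 of the same complex fell.

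Genes of the corona, the fibrous layer that expands on unattached kinetochores, showed the smallest median, -1.59 in DHT and -0.97 in vehicle, and 3 of 6 fell. CENPF, a large coiled-coil protein of the corona, had 8.33 with DHT and 8.53 with vehicle in siOCT1 cells, against 11.75 and 9.87 in siControl cells. It fell by 3.43 in DHT and by 1.34 in vehicle, since the siControl array with DHT stood highest. CENPE, the plus-end kinesin of kinetochores, had 7.20 and 7.63 in siOCT1 cells with DHT and vehicle, against 9.05 and 7.70 in siControl cells. Its difference was -1.85 in DHT and -0.07 in vehicle, so only the siControl array with DHT was high, and the fit did not call it (limma adjusted p = 0.153).

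Of the RZZ complex (ROD, ZW10 and ZWILCH), which recruits dynein and MAD1 to kinetochores, KNTC1 (ROD) had 8.53 and 8.29 with DHT and vehicle in siOCT1 cells, against 10.10 and 9.76 in siControl cells, and fell by 1.57 in DHT and 1.47 in vehicle. SPDL1 (Spindly), its dynein adaptor, had 8.31 and 7.86 in siOCT1 cells with DHT and vehicle, against 9.91 and 8.85 in siControl cells, and fell by 1.61 in DHT and 0.99 in vehicle. ZW10, which also works in membrane transport, differed by -0.59 in DHT and -0.20 in vehicle (limma adjusted p = 0.318), and its values overlapped. ZWILCH had 6.07 and 5.62 in siOCT1 cells with DHT and vehicle, below background, against 7.28 and 6.57 in siControl cells, of which the vehicle value also lay below it.

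In the spindle checkpoint 5 of 7 genes fell, with medians of -2.03 in DHT and -1.97 in vehicle. CDC20 showed the lowest mean difference of the 24 genes above background on every array, -3.50 ± 0.25 (SE). It had 9.14 with DHT and 8.49 with vehicle in siOCT1 cells, against 12.46 and 12.16 in siControl cells, so the groups lay far apart. MAD2L1 (MAD2), which holds CDC20 inactive, had 8.32 and 8.22 in siOCT1 cells with DHT and vehicle, against 10.77 and 10.40 in siControl cells. BUB1, a checkpoint kinase, had 8.52 and 8.59 in siOCT1 cells with DHT and vehicle, against 10.64 and 10.55 in siControl cells. Each pair of arrays under the same siRNA differed by less than 0.1 for BUB1, and it fell by 2.12 in DHT and 1.97 in vehicle.

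BUB1B (BUBR1), the pseudokinase of the mitotic checkpoint complex, had 10.16 and 9.57 with DHT and vehicle in siOCT1 cells, against 11.72 and 11.83 in siControl cells. TTK (MPS1), the kinase that starts checkpoint signalling, had 10.22 and 9.54 in siOCT1 cells with DHT and vehicle, against 12.25 and 10.55 in siControl cells. It fell by 2.03 in DHT, and its siOCT1 value with DHT came close to its siControl value with vehicle. BUB3, a WD-repeat protein that also serves outside mitosis, had 12.91 and 12.60 in siOCT1 cells with DHT and vehicle, against 13.31 and 12.88 in siControl cells. These values overlapped and differed by -0.41 and -0.28 (limma adjusted p = 0.263). MAD1L1 (MAD1), which brings MAD2 to kinetochores, was at least 1.41-fold lower in DHT and has no fold in vehicle, with both siOCT1 values below background, and was not called (limma adjusted p = 0.184).

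All 3 genes of the SKA complex, which helps NDC80 hold depolymerising microtubules, fell. SKA1 had 6.21 and 6.59 with DHT and vehicle in siOCT1 cells, below background, against 8.59 and 8.80 in siControl cells, and was at least 3.22-fold lower in DHT and at least 2.65-fold in vehicle. SKA2 had 11.74 and 11.46 in siOCT1 cells with DHT and vehicle, against 13.19 and 12.98 in siControl cells. SKA3 had 7.55 and 7.46 in siOCT1 cells with DHT and vehicle, against 9.55 and 8.90 in siControl cells. Both shugoshins, which protect centromeric cohesin, fell as well. SGO1 had 7.20 and 6.42 in siOCT1 cells with DHT and vehicle, against 9.83 and 9.31 in siControl cells, falling by 2.63 in DHT and at least 3.78-fold lower in vehicle. SGO2 exceeded background on the siControl array with DHT alone, at 7.20, and was at least 1.23-fold lower there.

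**Figure D3:**
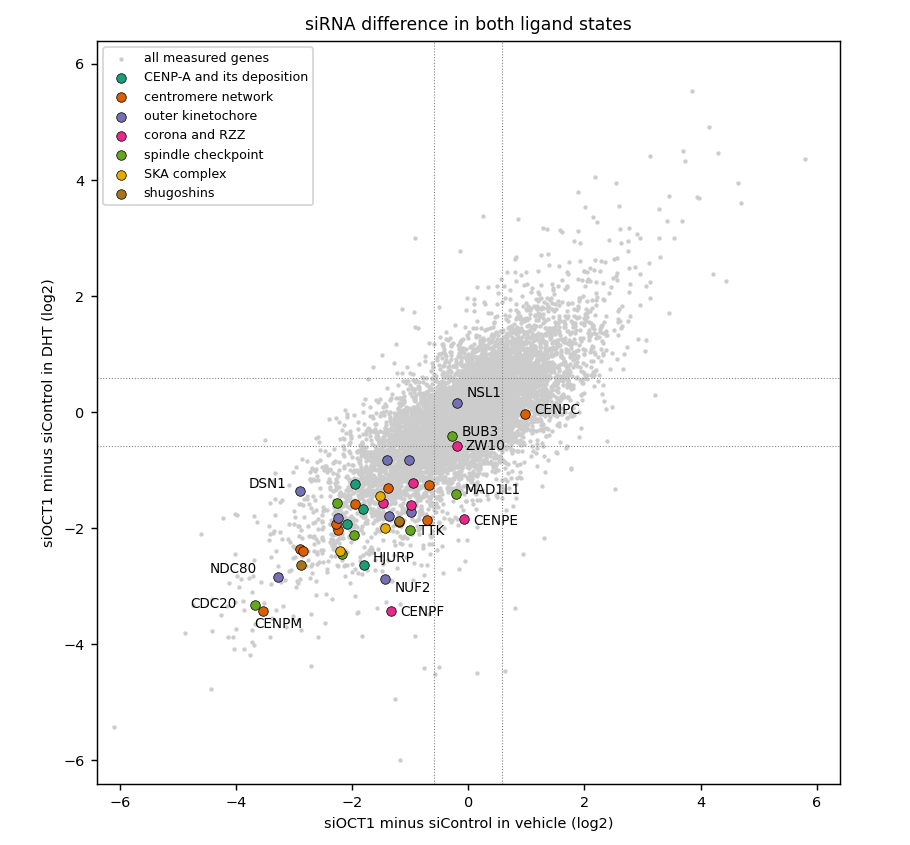
siOCT1 minus siControl in vehicle (horizontal) and in DHT (vertical), log2, for all 8843 measured genes (grey) and the 42 kinetochore genes coloured by role, with dotted lines at 1.5-fold. CDC20, CENPM and NDC80 lie lowest along the diagonal, CENPF, NUF2 and CENPE lie lower in DHT than in vehicle, DSN1 lies lower in vehicle, and NSL1, BUB3, ZW10 and CENPC lie near the centre or to its right.

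Related genes outside the 43 moved unequally. Of 20 other kinetochore genes listed, 13 were measured, and 6 fell and none rose, against 15.3% of all measured genes called lower. The median mean difference of the 13 was -0.72. SPAG5 (astrin), a spindle protein that stabilises attachments, had 3.64 and 3.65 with DHT and vehicle in siOCT1 cells, against 6.60 and 7.05 in siControl cells, of which only the last lay above background, so no fold is given. TRIP13, the ATPase that dismantles the mitotic checkpoint complex, fell by 2.09 in DHT and fell by 3.37 in vehicle. KIF18A, a kinesin that limits chromosome movement, fell by 2.63 in DHT, and its vehicle value was lower by at least 1.33-fold. KIF2C, CENPV and KNSTRN also fell.

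All 4 genes of the chromosomal passenger complex, which corrects wrong attachments, fell, against 15.3% of all measured genes. The median mean difference of the 4 was -1.96. CDCA8 (borealin) fell by 1.77 in DHT, and in vehicle its signal was lower by at least 7.45-fold. The kinase AURKB was at least 3.14-fold lower in DHT and at least 1.71-fold in vehicle, and BIRC5 (survivin) fell by 1.65 in DHT, with at least 2.55-fold lower signal in vehicle. INCENP was the remaining gene that fell. The anaphase-promoting complex, the ubiquitin ligase that the checkpoint restrains, was measured with all 15 genes, of which 3 fell, a share near the 15.3% of all measured genes, and none rose, with a median of -0.36. ANAPC13 was 2.83-fold lower in DHT and 1.78-fold in vehicle, ANAPC1 fell by 0.94 in DHT and fell by 1.12 in vehicle, and ANAPC11 also fell. FZR1 is the activator that takes over from CDC20 in late mitosis and G1. It had 8.24 and 8.61 with DHT and vehicle in siOCT1 cells, against 7.66 and 6.97 in siControl cells. Both siOCT1 values were higher, by 0.58 and 1.64, and the fit did not call it (limma adjusted p = 0.0561).

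**Figure D4:**
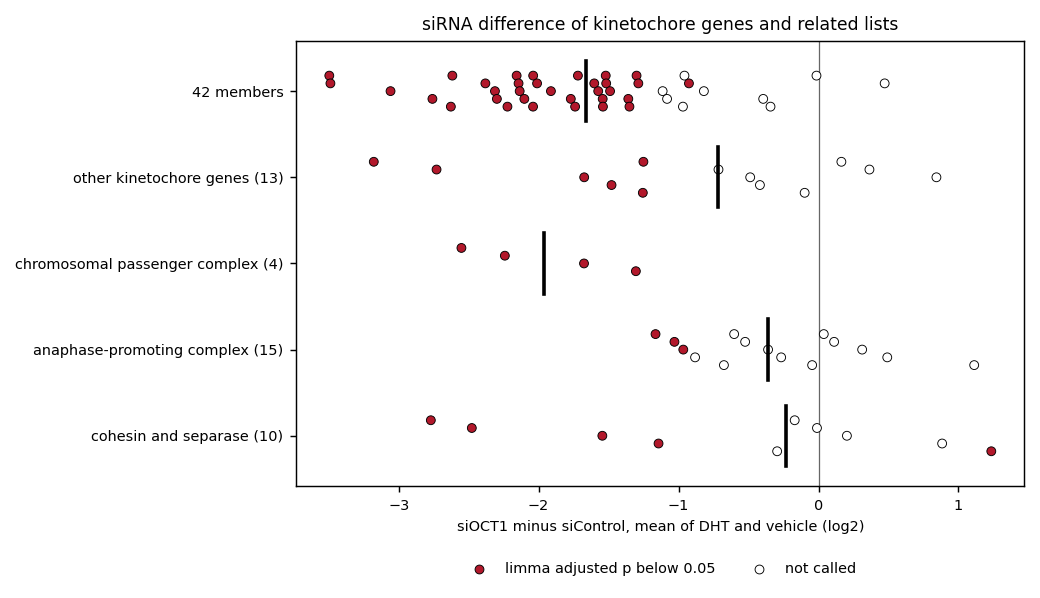
siOCT1 minus siControl, mean of DHT and vehicle (log2), for the 42 measured kinetochore genes and 4 related lists, with the number of measured genes in brackets. Filled points were called by limma after adjustment, bars are list medians, and the kinetochore and passenger lists centre at -1.66 and -1.96 while the ligase and cohesin lists centre at -0.36 and -0.23.

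No kinetochore gene was called with DHT, and the differences were mostly small and above 0, in 32 genes in siOCT1 cells and 36 in siControl cells. In siOCT1 cells 13 of 42 genes (31.0%) were higher with DHT by at least 1.5-fold, against 14.1% of all measured genes. In siControl cells 16 of 42 (38.1%) were, against 15.8%. The medians were 0.30 in siOCT1 cells and 0.39 in siControl cells, against 0.02 and -0.03 over all measured genes. Of the 24 genes above background on every array, 6 passed in siOCT1 cells and 10 in siControl cells. TTK was the only one of the 24 to pass under both siRNAs. The share of all genes above background on every array that passed is not given here. The deposited values of CENPW and SGO2 also passed under both, but in siOCT1 cells CENPW has a bound of at least 1.25-fold and SGO2 lay below background. The limma fit called none of the 42 genes with DHT, against 0.984% of all measured genes, with adjusted p from 0.168 for TTK to 0.989 for BUB1, and 5 of 42 genes had an unadjusted p below 0.05, against 1194 of all 8843, a larger share. Of the negative control probe sets, 26.6% in siOCT1 cells and 25.7% in siControl cells were also higher by 1.5-fold with DHT.

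In siControl cells the largest DHT differences among genes above background on both siControl arrays were those of CENPF at 1.89, TTK at 1.70, NUF2 at 1.36, CENPE at 1.35 and CENPK at 1.26. In siOCT1 cells CENPF stood at -0.20, TTK at 0.67, NUF2 at -0.09, CENPE at -0.43 and CENPK at 0.11. The siOCT1 value of CENPK with vehicle lay below background. For SGO2 the siControl value with DHT exceeded the background of the vehicle array by 1.49-fold, which is a lower bound. DSN1 differed by 1.14 in siOCT1 cells, against -0.41 in siControl cells. NDC80 and CENPW lay below background in siOCT1 cells with vehicle, and there DHT gave at least 1.57-fold and 1.25-fold higher signal, against differences of 0.54 and 0.61 in siControl cells. The responses in siOCT1 and siControl cells come from separate arrays, and across the 42 genes their Pearson r was -0.11 and their Spearman rho -0.10, against 0.46 and 0.33 over all measured genes, and 12 of the 42 lay below background on both siOCT1 arrays.

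**Figure D5:**
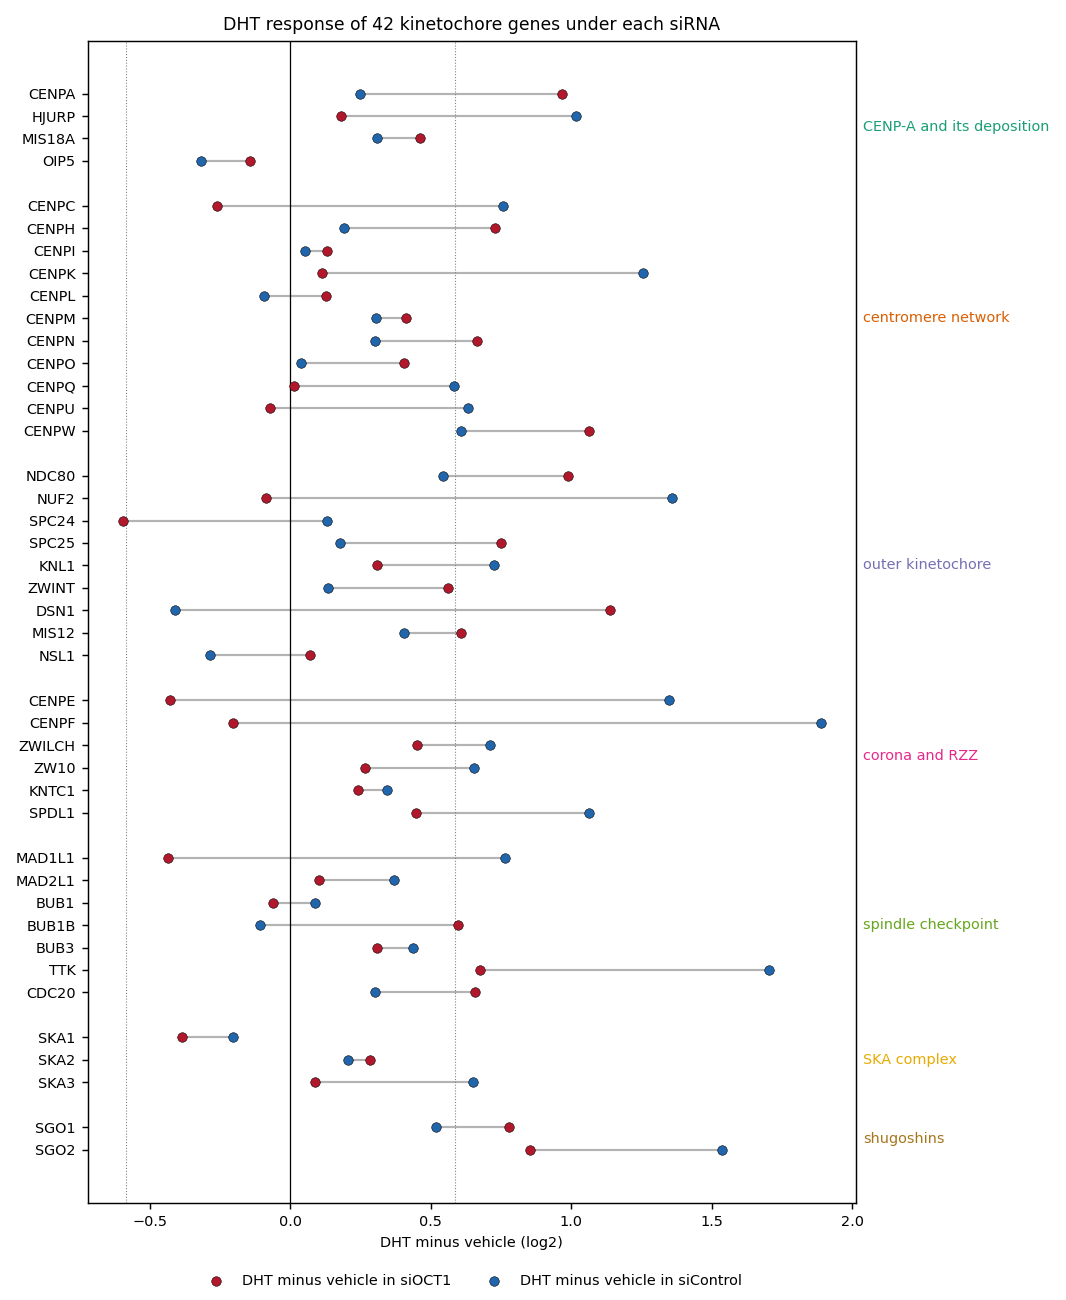
DHT minus vehicle (log2) for each of the 42 genes in siOCT1 cells (red) and siControl cells (blue), grouped by role, with dotted lines at 1.5-fold. All 6 corona and RZZ genes have the siOCT1 point left of the siControl point, the gap is widest for CENPF and CENPE, and DSN1 shows the widest gap the other way.

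The DHT difference in siOCT1 cells minus that in siControl cells was negative by at least 1.5-fold in 12 of the 42 genes (28.6%), against 18.0% of all measured genes. It was positive by that size in 3 (7.14%), CENPA, DSN1 and BUB1B, against 17.5%, and CENPA lay below background on every array. The median was -0.11, against 0.02 over all measured genes, and with arrays centred on positive controls it was -0.33. All 6 corona and RZZ genes had a negative value, with a median of -0.50, from -2.09 for CENPF and -1.78 for CENPE to -0.10 for KNTC1. Only 3 of the 6 passed the 1.5-fold rule, and 4271 of all 8843 measured genes also had a value below 0. In the outer kinetochore the median was 0.36 and the values ran from -1.45 for NUF2 to 1.55 for DSN1. These are single values per gene with no test, and 33.3% and 31.9% of the negative control probe sets passed the rule in the negative and positive direction.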

How the data were processed

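Total RNA of 4 cultures of 22Rv1 cells, 1 per group, was labelled for whole-transcript Affymetrix arrays, per the labels' protocols. The submitters' processing notes name RMA and Affymetrix Expression Console, with which the authors produced the deposited log2 values. Versions and genome build are not given in the sources used here. Usually RMA forces the arrays to a common distribution, so a change of total RNA would not show. The base of the logarithm was inferred from the range, in which 327 to 379 per array exceeded 16, so folds hold on the deposited scale only. Array medians were 5.99 to 6.03. Precision is limited by there being 4 arrays.

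Of 24351 probe sets, 17709 had 1 gene symbol, 0 had several and the others none in the table used, giving 17687 genes; of 20 genes with more than 1 probe set the brightest was used. Groups came from the labels. The additive model was fitted with limma 3.58.1 (lmFit, eBayes with intensity trend, prior of 5.85 degrees of freedom) in R 4.3.3, with Benjamini-Hochberg adjustment over 8843 genes, and tested on simulated data. Other steps used Python 3.11.15 with pandas 2.3.3, numpy 2.4.6 and statsmodels 0.14.6. Values of every array are given for up to 5 genes per role with the largest mean siRNA difference, for genes higher with siOCT1 and for those within 1.5-fold in both ligand states; other lists name up to 3 genes. KIF2C, CENPV, KNSTRN, INCENP, ANAPC11, KRT8, SMC3, STAG1 and STAG2 were added after their values were seen. The genes, lists and tests were chosen with earlier results of these data known. Promoter sequences are from RefSeq (GRCh38.p14).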

Additional observations from a re-analysis of the deposited data

Results flagged for a closer look

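In 9 genes the DHT difference ran in opposite directions under the siRNAs and the responses differed by at least 1.5-fold; with 1 array per group this difference was not tested. The value given is the response in siOCT1 cells minus that in siControl cells. It was -2.09 for CENPF, -1.78 for CENPE, -1.45 for NUF2, -1.20 for MAD1L1, -1.02 for CENPC, -0.72 for SPC24 and -0.70 for CENPU, in which DHT was the lower array in siOCT1 cells and the higher one in siControl cells. It was 0.70 for BUB1B and 1.55 for DSN1, in which DHT was the higher array in siOCT1 cells and the lower one in siControl cells. MAD1L1 lay below background on both siOCT1 arrays, and the other 8 lay above it on all 4. The share of all measured genes that meet both conditions is not given here. The size condition alone was passed by 18.0% of all measured genes in the negative and 17.5% in the positive direction. Of the negative control probe sets, 33.3% and 31.9% passed it.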

How the results depend on the processing

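Over 7 alternatives the median siRNA difference lay between -1.84 and -1.64 in DHT and between -1.45 and -1.24 in vehicle, and over 10 alternatives no called gene changed sign. The NSL1 mean siRNA difference, which was not called, was -0.01, against 0.13 with loess centring and 0.09 centred on positive controls. After raising values to the highest background the CENPM mean siRNA difference was -2.05 and the NDC80 mean siRNA difference -2.89, against -3.49 and -3.06 as deposited. With only genes above background on every array, 24 of the genes were tested and 19 were called lower, against 948 of 6458 genes tested. By the 1.5-fold rule 19 of the 24 were lower in DHT and in vehicle. By this rule 6 were higher with DHT in siOCT1 cells and 10 in siControl cells. The share of all genes passing the rule under this filter is not given here. The median change of the DHT response was -0.21. No alternative called any of the genes with DHT. Without the ligand term 24 genes were called lower, and CENPA, CENPI, CENPK, KNL1, MIS12, CENPF, SPDL1, TTK and SGO2 were lost; CENPK and MIS12 were also lost with no filter, with no intensity trend and after raising values to the highest background (there also CENPI and KNL1), and SGO2 with loess centring and with 32 added. With no intensity trend SPC25 and ZWILCH were called as well. Over all genes 1353 were called lower with siOCT1, against 646 without the ligand term, and the DHT calls 87, against 0 without the siRNA term and 9 to 293 under the others. Centring on positive controls gave a median change of -0.33 and 1 positive change. The count higher with DHT in siOCT1 cells was 7 after values were raised to the highest background, where the median was 0.10, and 8 with 32 added. A 2-fold rule left 2 in siOCT1 cells, 8 in siControl cells, 7 negative and 1 positive change. The stricter and raised settings test fewer genes by construction; otherwise the cause was not tested. With 1 array per group there were no replicates to pair. Signal over background limits the dim genes, 18 of which have a bound or no fold in vehicle.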

Other observations

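Cohesin and separase genes, which hold and release sister chromatids, were mixed: of 10 measured, 4 fell and 1 rose in the limma fit. Of all 8843 measured genes the fit called 1353 lower and 805 higher, so the share that rose was near that of all genes. CDCA5 (sororin), which protects cohesin until mitosis, was at least 3.66-fold lower with siOCT1 in DHT and at least 3.49-fold in vehicle. The cohesin core gene SMC1A had 9.28 with DHT and 8.98 with vehicle in siOCT1 cells, against 11.72 and 11.50 in siControl cells. SMC3 of the same list differed by -1.17 in DHT and 0.58 in vehicle and was not called. The securin gene PTTG1 fell by 1.26 in DHT and fell by 1.83 in vehicle. The alternative cohesin subunits moved apart: STAG2 rose by 0.76 in DHT and 1.71 in vehicle (limma adjusted p = 0.0227), and STAG1 fell by 1.02 and 1.27 (limma adjusted p = 0.0222). The difference between STAG2 and STAG1 was not tested.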
